A study of Arabidopsis thaliana with 30 samples.

Results

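The 10 genes described here encode the machinery that prepares Arabidopsis thaliana chromosomes for replication and the clamp that then travels with the replication fork. They are the 6 subunits of the MCM2-7 helicase, MCM2 (AT1G44900), MCM3 (AT5G46280), MCM4 (AT2G16440), MCM5 (AT2G07690), MCM6 (AT5G44635) and MCM7 (AT4G02060), the clamp genes PCNA1 (AT1G07370) and PCNA2 (AT2G29570), and the helicase loaders CDC6 (AT2G29680) and CDT1A (AT2G31270). They were taken by locus identifier, whatever their level, and are 10 of the 33602 loci counted. All 10 passed the filter on low counts in every comparison.

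RNA was sequenced from 15 libraries of inflorescences, each run in 2 lanes. All plants carried pSHP2-GAL4 and pUAS-3xYpet, which together place a yellow fluorescent protein (YFP) where the SHP2 promoter is active, in a background with pAP1-AP1::GR and the mutations ap1 and cal. YFP-POS (n = 3) were protoplasts, cells freed of their walls, sorted for YFP, and the labels give them as medial domain of the gynoecium, the part of the flower that bears the ovules. YFP-NEG (n = 4) were protoplasts without YFP and ALL-SORT (n = 4) were protoplasts passed through the sorter without that choice, while NO-SORT (n = 4) were whole inflorescences frozen directly. Ages of the plants and any treatment are not given in the sources used here, and no group lacks the reporter, the receptor fusion or the mutations. The ap1 and cal mutations together are known for inflorescences that keep forming meristems, the tissue of dividing cells, in place of flowers.

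Before S phase, the origin recognition complex, CDC6 and CDT1 place the ring of MCM2 to MCM7 around DNA at origins, a step called licensing. When S phase begins the ring unwinds DNA as part of the replicative helicase, and PCNA, a sliding clamp, holds DNA polymerases on the template. In plants, transcription of many of these genes is under E2F transcription factors and the retinoblastoma-related protein RBR1, and high levels mark dividing tissue such as young floral organs.

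The stretch before each MCM gene is shown because the 6 subunits form a single ring with equal numbers of each, while their transcripts differed between the groups by unequal amounts. Each sequence is the 250 bases before the annotated gene start in the RefSeq annotation of TAIR10.1, with the E2F-type letters TTCCCGC or TTGGCGC or TTGCCGC or TTCGCGC on either strand in capitals. On the minus strand of the gene these read as their reverse complements.
MCM4 (chr2:7130730-7130979, minus strand): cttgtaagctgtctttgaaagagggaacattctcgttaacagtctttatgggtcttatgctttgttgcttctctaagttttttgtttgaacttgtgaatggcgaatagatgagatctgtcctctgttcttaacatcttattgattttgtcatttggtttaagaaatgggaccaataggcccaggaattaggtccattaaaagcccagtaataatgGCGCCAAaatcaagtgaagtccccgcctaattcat
MCM5 (chr2:3527501-3527750, minus strand): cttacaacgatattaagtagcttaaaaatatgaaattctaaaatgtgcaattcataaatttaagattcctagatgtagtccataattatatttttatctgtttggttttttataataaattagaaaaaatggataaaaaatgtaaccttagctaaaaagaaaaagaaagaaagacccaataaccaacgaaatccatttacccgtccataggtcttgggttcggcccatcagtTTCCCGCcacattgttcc
MCM7 (chr4:900386-900635, plus strand): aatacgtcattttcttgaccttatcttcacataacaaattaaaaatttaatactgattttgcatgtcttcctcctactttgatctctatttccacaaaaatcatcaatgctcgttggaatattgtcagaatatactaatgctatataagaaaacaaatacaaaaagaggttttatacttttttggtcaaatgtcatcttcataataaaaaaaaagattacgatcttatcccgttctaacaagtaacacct
MCM2 (chr1:16969964-16970213, plus strand): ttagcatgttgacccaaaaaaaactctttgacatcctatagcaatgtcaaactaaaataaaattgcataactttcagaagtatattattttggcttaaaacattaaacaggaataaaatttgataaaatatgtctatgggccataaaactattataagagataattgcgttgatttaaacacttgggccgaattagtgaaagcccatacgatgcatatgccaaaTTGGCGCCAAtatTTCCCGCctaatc
MCM3 (chr5:18773707-18773956, minus strand): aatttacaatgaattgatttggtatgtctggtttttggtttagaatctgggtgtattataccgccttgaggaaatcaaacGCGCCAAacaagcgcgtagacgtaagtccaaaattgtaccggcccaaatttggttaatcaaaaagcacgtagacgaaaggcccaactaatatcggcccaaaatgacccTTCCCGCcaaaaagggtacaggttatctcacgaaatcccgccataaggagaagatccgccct
MCM6 (chr5:18010668-18010917, minus strand): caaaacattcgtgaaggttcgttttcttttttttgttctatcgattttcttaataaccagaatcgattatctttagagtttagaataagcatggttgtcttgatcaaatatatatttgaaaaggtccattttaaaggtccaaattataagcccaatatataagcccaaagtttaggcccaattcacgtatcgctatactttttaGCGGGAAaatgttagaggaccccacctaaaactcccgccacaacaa

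E2F-type letters stood in this window in 7 of the 10 genes: MCM2, MCM3, MCM4, MCM5, MCM6, PCNA2 and CDT1A. MCM7, PCNA1 and CDC6 held none there. Over the windows of 26699 protein-coding loci the share was 2.906%. MCM2 held 3 matches, of which a pair overlap because TTGGCGC there runs into its own reverse complement, and MCM3 held 2. In MCM4 the match ended 29 bases before the gene start and in MCM5 12 bases before it. The site II letters TGGGCC or TGGGCT, a motif of plant promoters of growth-related genes, stood in the same 7 genes, against 19.43% of all windows. A match describes letters only, and the window ends at the annotated start, so letters inside the transcribed region were not searched.

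**Figure D1:**
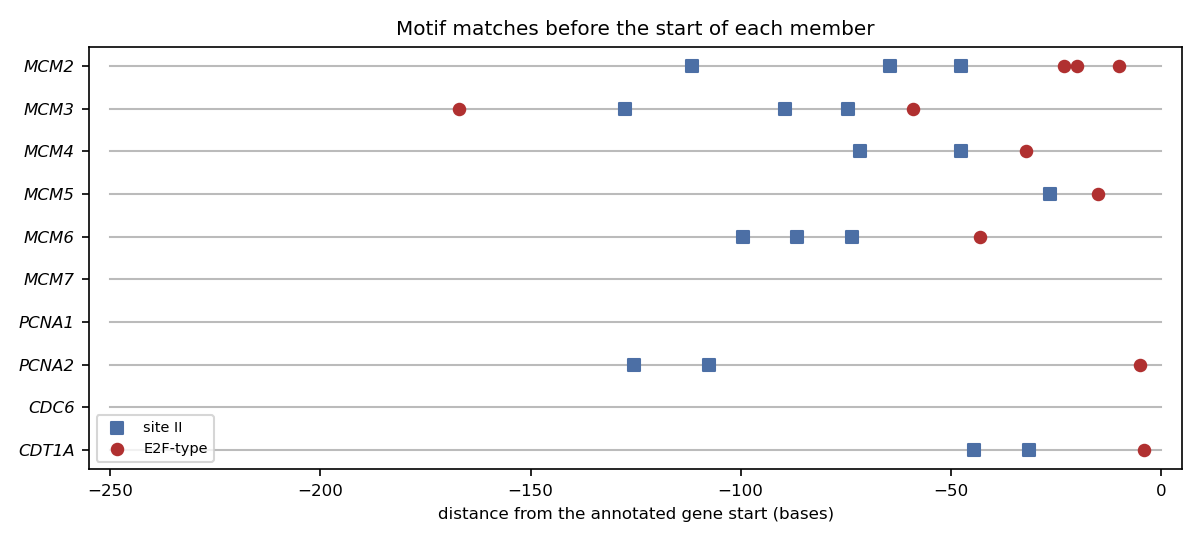
Matches to E2F-type (circles) and site II (squares) letters in the 250 bases before the start of each gene, with distance in bases from the annotated start on the x axis. MCM7, PCNA1 and CDC6 have no match of either kind, and MCM2 has 3 E2F-type and 3 site II matches.

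Total counts per library lay between 12644721 and 21027032. ALL-SORT replicate 4 stood apart: across loci its log2 CPM, counts relative to the library total, correlated with those of NO-SORT replicate 1 at r = 0.975, and with its own group at 0.941 to 0.960. The summed level of 5 stress and wound genes (WRKY40, ZAT12, RRTF1, CML37 and MYB15) was 682 CPM in it, the lowest of ALL-SORT, whose highest was 3919 CPM. Calls of the MCM, PCNA, CDC6 and CDT1A genes against ALL-SORT are therefore given with and without this library. Those against NO-SORT are also given without replicate 1. The markers and the other gene lists were fitted with all libraries of their groups only, so their calls carry no such check. The 8 medial gynoecium markers, SHP2 among them, summed to 661 to 1045 CPM in YFP-POS and to 67.7 to 89.2 CPM in YFP-NEG, and all 8 were higher in YFP-POS. The label of the sorted domain thus matched its markers. The SHP2 promoter drives the reporter used for sorting, so the rise of SHP2 itself follows from the design and is no independent support.

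In YFP-POS cells 7 of the 10 genes were called higher than in YFP-NEG cells and none was called lower, at an adjusted p under 0.05 in edgeR's quasi-likelihood test. Of the 18830 loci tested, 48.8% were called in either direction and 24.4% were called higher. MCM4, MCM5 and MCM7 had the largest differences of the 10, and MCM2, MCM6 and CDC6 were not called. In these bulk samples fewer cells of a type and less RNA per cell cannot be told apart.

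MCM4, a subunit of the helicase, had 152, 114 and 144 CPM in the 3 YFP-POS libraries, against 48.5, 51.8, 42.0 and 46.6 CPM in the 4 YFP-NEG libraries. CPM are here counts relative to the library total after TMM scaling over all 15 libraries. Every YFP-POS library lay above every YFP-NEG library, which held for 23.4% of all loci tested. YFP-POS averaged 137 ± 19.8 CPM and YFP-NEG 47.2 ± 4.09 CPM (SD, n = 3 and 4), and the fitted difference was 1.57 on the log2 scale (SE 0.13, adjusted p = 4.30e-06).

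MCM5, which in yeast sits at the gate where the ring opens for DNA, had 142, 120 and 139 CPM in YFP-POS, against 61.9, 56.8, 56.9 and 68.1 CPM in YFP-NEG. The groups did not overlap, and the log2 fold change was 1.18 (SE 0.12, adjusted p = 1.63e-05). MCM7, named PRL (PROLIFERA) in RefSeq, had 153, 137 and 131 CPM in YFP-POS, against 65.5, 65.7, 60.2 and 66.9 CPM in YFP-NEG. These groups too lay apart, and the log2 difference was 1.16 (SE 0.11, adjusted p = 9.42e-06). MCM7 shares 437 bases with STP7 on the opposite strand. STP7 had 25 to 153 counts per library, against 878 to 2807 for MCM7, and whether the counting used the strand is not given in the sources used here.

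MCM2, MCM3 and MCM6, the other subunits of the ring, differed less, and their groups overlapped. MCM3 had 158, 113 and 102 CPM in YFP-POS, against 95.4, 83.4, 97.4 and 106 CPM in YFP-NEG. The third YFP-POS library lay within the YFP-NEG range, and replicate 1 was the highest. The log2 fold change was 0.41 (SE 0.15, adjusted p = 0.0358), and the call was lost without YFP-POS replicate 1 (0.24, adjusted p = 0.202), without YFP-POS replicate 2 (adjusted p = 0.0643) and without YFP-NEG replicate 1, 2 or 3 (adjusted p = 0.0618, 0.101 and 0.0659).

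MCM2 had 115, 72.2 and 89.5 CPM in YFP-POS, against 72.2, 58.5, 77.1 and 78.7 CPM in YFP-NEG. Its difference of 0.40 on the log2 scale (SE 0.16) was not called (adjusted p = 0.0533). It was called with no filter on low counts (edgeR adjusted p = 0.0450) and with DESeq2 (adjusted p = 0.0450). Leaving out YFP-POS replicate 2 also gave a call (0.51, edgeR adjusted p = 0.0233), and leaving out YFP-POS replicate 1 lowered the difference to 0.25. MCM6 had 124, 68.5 and 71.8 CPM in YFP-POS, against 81.0, 58.0, 76.2 and 81.1 CPM in YFP-NEG, and its difference of 0.29 (SE 0.19) was not called either (adjusted p = 0.248). For both genes YFP-POS replicate 1 was the highest library of the group, and for MCM6 the other YFP-POS libraries lay inside the YFP-NEG range.

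**Figure D2:**
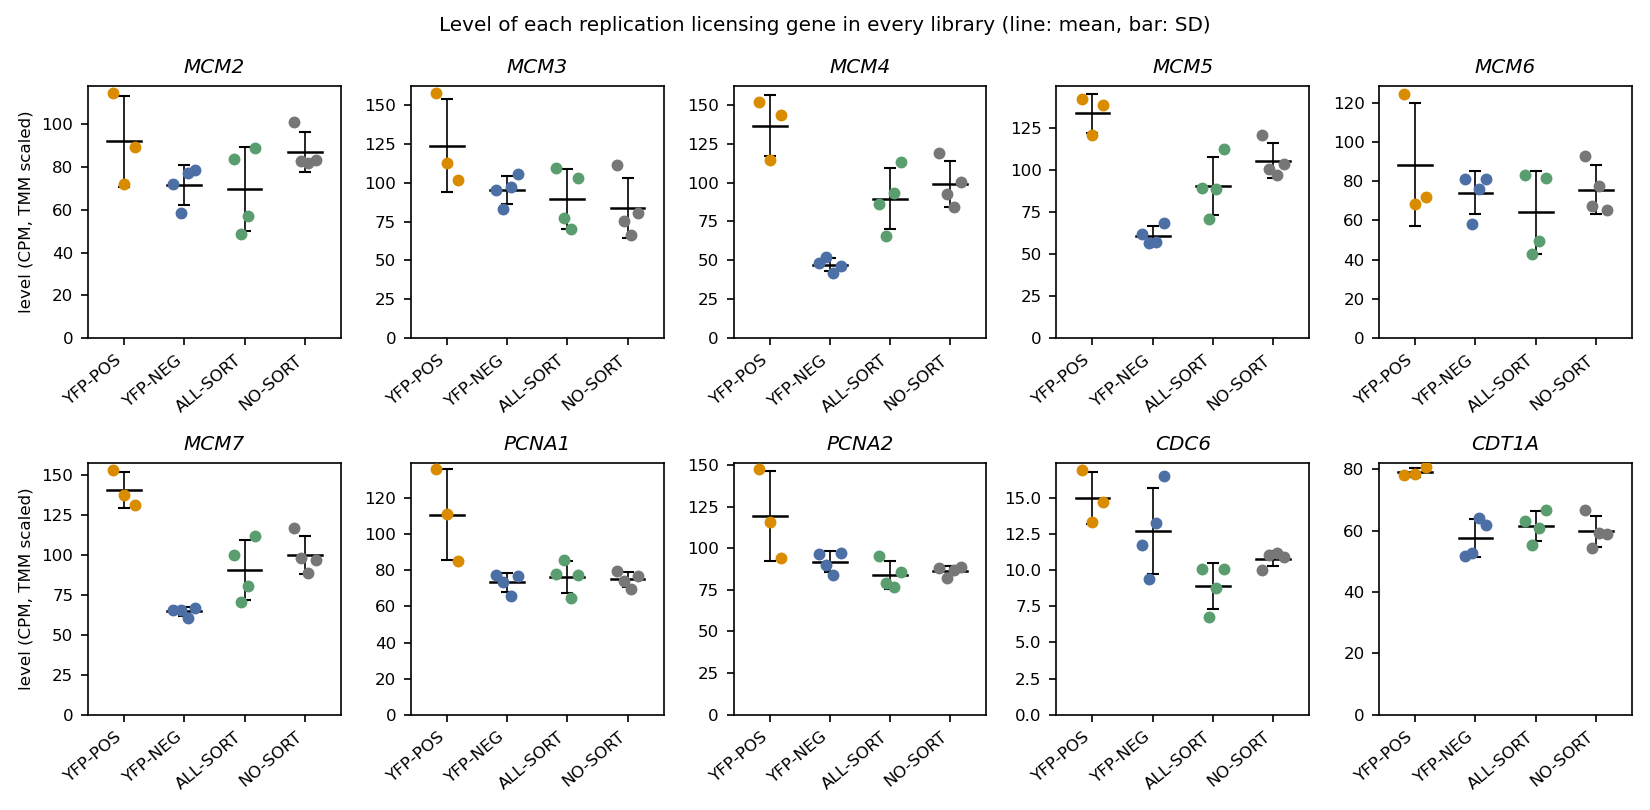
Level in CPM (TMM scaled, linear axis from 0) of each of the 10 genes in every library, by group from YFP-POS on the left to NO-SORT on the right; lines are means and bars are SD. For MCM4, MCM5 and MCM7 the YFP-NEG libraries lie below those of the other 3 groups, while for MCM3 and MCM6 the 4 groups overlap.

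The sliding clamp genes were both called higher in YFP-POS. PCNA1 had 136, 111 and 85.4 CPM in YFP-POS, against 77.7, 73.6, 65.7 and 76.7 CPM in YFP-NEG. Every YFP-POS library was above every YFP-NEG library, and the log2 difference was 0.63 (SE 0.15, adjusted p = 0.00350). PCNA2 had 148, 116 and 94.2 CPM in YFP-POS, against 96.8, 90.1, 83.9 and 97.4 CPM in YFP-NEG. Its groups overlapped by 1 library, and the difference of 0.41 on the log2 scale (SE 0.14, adjusted p = 0.0309) lost its call without YFP-POS replicate 1 (0.26, adjusted p = 0.166) or replicate 2 (adjusted p = 0.0874) and without YFP-NEG replicate 2 or 3 (adjusted p = 0.0714 and 0.0860).

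The clamp genes encode nearly the same protein, but their coding sequences are separable by reads of 125 bases. None of the 668 stretches of that length in PCNA1 matched PCNA2 with at most 2 mismatches, and the closest differed at 12 bases. PCNA2 overlaps ENOC, which had 456 to 1040 counts per library, by 279 bases on the opposite strand, so its counts are the less certain of the pair. Within libraries PCNA1 stood at 0.907 to 0.962 of the CPM of PCNA2 in YFP-POS and at 0.782 to 0.816 in YFP-NEG, against 0.819 to 1.09 in ALL-SORT and 0.804 to 0.905 in NO-SORT. These CPM are not adjusted for transcript length, and the ratio was looked at after the values were seen, so it carries no test.

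Of the loaders, CDT1A was called higher and CDC6 was not. CDT1A, which brings the MCM ring to the origin, had 78.0, 78.3 and 80.7 CPM in YFP-POS, against 51.8, 52.9, 64.0 and 61.9 CPM in YFP-NEG. The YFP-POS libraries lay close together and above all YFP-NEG libraries, and the log2 difference was 0.50 (SE 0.12, adjusted p = 0.00504). CDC6, the ATPase that works with CDT1 in loading, was the lowest of the 10 genes, with 17.0, 13.4 and 14.7 CPM in YFP-POS, against 11.8, 9.43, 13.3 and 16.6 CPM in YFP-NEG. These groups overlapped, and the log2 fold change was 0.28 (SE 0.20, adjusted p = 0.264). CDC6 had 126 to 311 counts per library in these groups, and why its difference was not called was not tested.

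Replicate numbers paired the sorted libraries in the data, and with the number as a block 8 of the 10 genes were called higher, against 24.6% of all loci called higher in that fit. MCM2 was the gene gained, at 0.44 on the log2 scale (SE 0.12, adjusted p = 0.0120). YFP-POS has no replicate 4, so YFP-NEG replicate 4 was alone in its block and did not inform the group difference in that fit. The calls of MCM4, MCM5, MCM7, PCNA1 and CDT1A held under each scaling, filter, tool and left-out library that was run.

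Several marker sums differed between the same groups. The epidermis markers ATML1 and PDF1 summed to 978 to 1356 CPM in YFP-POS, 374 to 412 CPM in YFP-NEG, 636 to 1540 CPM in ALL-SORT and 1205 to 1873 CPM in NO-SORT, so they were lowest where MCM4, MCM5 and MCM7 were lowest. Both were called higher in YFP-POS than in YFP-NEG. The 7 stamen and petal markers summed to 118 to 150 CPM in YFP-POS and 417 to 469 CPM in YFP-NEG, with MS1 at 0 in every YFP-NEG library. The stress and wound genes summed to 1334 to 1996 CPM in YFP-POS and 3070 to 4454 CPM in YFP-NEG, and all 5 were lower in YFP-POS. The 3 shoot and floral meristem markers summed to 71.5 to 84.7 CPM in YFP-POS and 66.0 to 91.85 CPM in YFP-NEG. None of the 2 tested was called. The 3 meiocyte markers summed to 74.8 to 84.3 CPM in YFP-POS and 59.6 to 78.2 CPM in YFP-NEG, with 1 called higher. The 2 vascular markers summed to 4.09 to 19.9 CPM in YFP-POS and 16.9 to 63.3 CPM in YFP-NEG, with 1 called lower. The part of these markers in the MCM, PCNA and CDT1A values was not tested.

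YFP-NEG was also set against ALL-SORT, which asks how the reporter-negative cells differ from the sorted whole. MCM4, MCM5 and MCM7 were called lower in YFP-NEG and no other gene was called, 3 of 10, where 10.9% of 18658 loci were called lower. In ALL-SORT, MCM4 had 85.9, 65.9, 93.4 and 113 CPM, all above the YFP-NEG values given above, and MCM5 and MCM7 were likewise lower in every YFP-NEG library, which held for 14.1% of loci. Of the loci called, 19.5% were higher in YFP-NEG, and 35.0% were with upper-quartile scaling. The log2 fold changes of YFP-NEG over ALL-SORT were -0.93 for MCM4 (SE 0.16, adjusted p = 0.00658), -0.58 for MCM5 (SE 0.15, adjusted p = 0.0284) and -0.50 for MCM7 (SE 0.15, adjusted p = 0.0478). The other 7 genes had log2 fold changes from -0.10 for CDT1A to 0.51 for CDC6.

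Without ALL-SORT replicate 4, MCM4 (-0.79, adjusted p = 0.00506) and MCM5 (-0.45, adjusted p = 0.0409) were still called, and MCM7 was not (-0.38, adjusted p = 0.0826). MCM5 and MCM7 also lost their calls without any 1 of the YFP-NEG libraries and without ALL-SORT replicate 1 or 3, which left MCM4 as the 1 gene called. In these fits 4.16% to 9.65% of loci were called lower. MCM7 lost its call in 14 of 18 alternatives, also with RLE scaling (adjusted p = 0.0603), upper-quartile scaling (0.0638), library totals (0.0906), limma-voom (0.0561) and both other filters (0.0630 and 0.0576). With the replicate block the same 3 genes were called, against 12.7% of loci called lower. With all libraries of both groups, the epidermis markers were both called lower in YFP-NEG than in ALL-SORT. Their calls without ALL-SORT replicate 4, and their part in these values, were not tested.

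YFP-NEG against NO-SORT, which differ in digestion and sorting as well as in cells, gave the same 3 genes with smaller p-values. Calls were more common over all loci too, at 51.6% in either direction here and 13.6% against ALL-SORT. MCM4 had 119, 92.8, 84.5 and 100.3 CPM in NO-SORT, and every YFP-NEG library lay below them, as for 26.1% of loci. The log2 fold changes of YFP-NEG over NO-SORT were -1.02 for MCM4 (SE 0.12, adjusted p = 2.11e-05), -0.74 for MCM5 (SE 0.11, adjusted p = 0.000107) and -0.58 for MCM7 (SE 0.11, adjusted p = 0.000589). Here 25.9% of 18886 loci were called lower, so 3 of 10 is near the share of all loci. Of the loci called, 49.8% were higher in YFP-NEG, and 37.5% were with library totals. MCM2 also lay below NO-SORT in every YFP-NEG library but was not called (-0.23, adjusted p = 0.127), and with library totals in place of TMM it was (-0.34, adjusted p = 0.0246), a scaling that moved the median of all loci to -0.12. Without NO-SORT replicate 1, MCM3 was called as well, higher in YFP-NEG (0.43, adjusted p = 0.00529).

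YFP-POS against ALL-SORT gave positive fold changes for all 10 genes, from 0.36 for CDT1A to 0.75 for CDC6, of which 2 were called. MCM7 was called at 0.63 (SE 0.17, adjusted p = 0.0442) and CDC6 at 0.75 (SE 0.20, adjusted p = 0.0358), where 3.36% of 18767 loci were called higher. MCM4 (0.60, adjusted p = 0.0711), MCM5 (0.56, adjusted p = 0.0571) and CDT1A (0.36, adjusted p = 0.0788) missed the threshold although every YFP-POS library lay above every ALL-SORT library, which held for 10.3% of loci.

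This count moved with the replicate block and with single libraries. MCM6 had 83.2, 42.7, 49.3 and 81.4 CPM in ALL-SORT, and MCM2 had 84.0, 48.8, 57.2 and 88.7 CPM, so replicates 1 and 4 were high and 2 and 3 low for both genes. With the replicate block all 10 genes were called higher, with log2 fold changes from 0.40 for CDT1A (SE 0.09, adjusted p = 0.00171) to 0.82 for CDC6 (SE 0.16, adjusted p = 0.000721), where 18.5% of loci were called higher. MCM6 stood at 0.60 in that fit (SE 0.09, adjusted p = 4.65e-05). YFP-POS has no replicate 4, so ALL-SORT replicate 4 was alone in its block and did not inform the group difference there. Without the block, MCM6 stood at 0.60 when ALL-SORT replicate 4 was left out and at 0.45 with all libraries. How much of the change came from the pairing and how much from the lost library was not tested. Without ALL-SORT replicate 4 and without the block, MCM4, MCM5, MCM7 and CDC6 were called, beside 4.56% of loci called higher. In the fit without the block, edgeR called none of the 10 genes once YFP-POS replicate 1 or 2, or ALL-SORT replicate 2 or 3, was left out. Of the 10, 5 to 7 then had an unadjusted p under 0.05, a threshold at which no share of all loci was taken. The share of all loci called higher was then 1.19% to 2.18%. It was 2.1% without ALL-SORT replicate 1, where CDC6 alone was called, and 3.44% without YFP-POS replicate 3, where PCNA1 and PCNA2 were called.

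YFP-POS against NO-SORT, which differ in sorting as well as in cells, had 8 of 10 genes called higher, where 22.2% of 18877 loci were. The genes not called were MCM2 (0.12, adjusted p = 0.554) and MCM6 (0.26, adjusted p = 0.315). The called log2 fold changes lay between 0.39 for MCM5 (adjusted p = 0.0246) and 0.61 for MCM3 (adjusted p = 0.0212). MCM7, PCNA1, PCNA2, CDC6 and CDT1A lay above NO-SORT in every YFP-POS library, as did 22% of loci. Of the loci called, 48.2% were higher in YFP-POS, and 34.8% were with library totals. With library totals 3 of the 10 genes kept their call (MCM7, PCNA1 and CDT1A), beside 15.4% of all loci called higher. Without NO-SORT replicate 1 the same 8 genes were called, beside 20% of all loci called higher. The calls thinned to 4 without YFP-POS replicate 1 or NO-SORT replicate 3, and to 3 without NO-SORT replicate 4. They thinned to 2, MCM7 and PCNA1, without NO-SORT replicate 2. The share of all loci called higher was 20.6%, 16.4%, 15.5% and 15.2% in these fits, in that order.

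ALL-SORT against NO-SORT sets digested and sorted cells, taken without a choice by YFP, against whole inflorescences. None of the 10 genes was called by edgeR, where 13.4% of 18733 loci were called. DESeq2 and limma-voom called none either, where they called 20.5% and 12.6% of loci. With so few genes, the lack of a call is not far from these shares. None had an unadjusted p under 0.05 in edgeR, a threshold at which no share of all loci was taken. Of the loci called, 73.2% were higher in ALL-SORT, and 53.9% were with library totals. With 1 library left out, between 6.36% of loci (without NO-SORT replicate 4) and 29.7% (without ALL-SORT replicate 4) were called, of which 94.2% and 51.5% were higher in ALL-SORT, in that order. Leaving out ALL-SORT replicate 1 or 3, or NO-SORT replicate 2 or 3, also brought the share to between 6.42% and 7.5%, and ALL-SORT replicate 2 to 8.17%. The log2 fold changes of the 10 genes lay between -0.31 for MCM2 (SE 0.20) and 0.12 for MCM3 (SE 0.20). PCNA2 (-0.03, SE 0.10), PCNA1 (0.04, SE 0.11) and CDT1A (0.06, SE 0.11) lay nearest to 0. Without ALL-SORT replicate 4 none was called, and 2 genes had an unadjusted p under 0.05. Leaving out NO-SORT replicate 1 as well gave no call and no unadjusted p under 0.05, where 31.4% of loci were called. The stress and wound genes summed to 682 to 3919 CPM in ALL-SORT and to 2.68 to 17.1 CPM in NO-SORT. Of the 8 medial gynoecium markers 5 were called higher in ALL-SORT and none lower (median log2 fold change 1.02), with sums of 175 to 279 CPM in ALL-SORT and 155 to 206 CPM in NO-SORT, and the part of these markers in the values of the 10 genes was not tested.

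**Figure D3:**
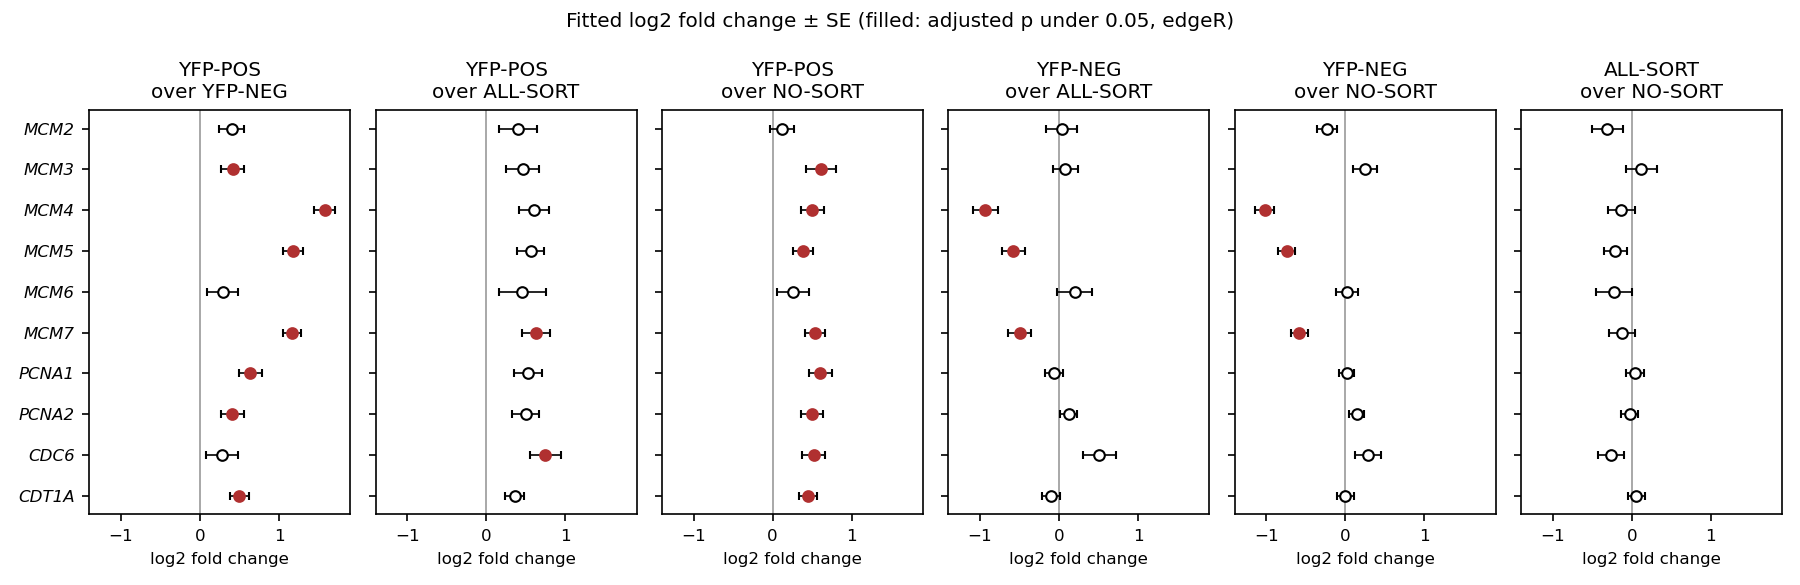
Fitted log2 fold change with SE of each gene in the 6 comparisons, the group named first over the other; filled points had an adjusted p under 0.05 in edgeR. MCM4, MCM5 and MCM7 stand to the right of the other genes in YFP-POS over YFP-NEG and to the left of 0 in both comparisons of YFP-NEG with unselected material. The comparisons share libraries, so the panels are not independent.

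Set in order by mean, YFP-POS was the highest group for each of the 10 genes. For MCM6 and MCM2 this rested on YFP-POS replicate 1: without it MCM6 stood at -0.0097 against YFP-NEG and -0.041 against NO-SORT, and MCM2 at -0.040 against NO-SORT, none of them called. For MCM4, MCM5 and MCM7 the order was YFP-POS, NO-SORT, ALL-SORT and YFP-NEG, and the NO-SORT and ALL-SORT means did not differ beyond their spread. MCM5 averaged 134 ± 11.6 CPM in YFP-POS, 60.9 ± 5.39 CPM in YFP-NEG, 90.3 ± 17.2 CPM in ALL-SORT and 105 ± 10.6 CPM in NO-SORT (SD, n = 3, 4, 4 and 4). For PCNA1, PCNA2 and CDT1A the other 3 groups lay close together, with means of 73.4 to 76.5 CPM for PCNA1, and no pair of these 3 groups was called. CDC6 averaged 12.8 ± 2.98 CPM in YFP-NEG and 8.92 ± 1.57 CPM in ALL-SORT, its lowest group, a difference that was not called (adjusted p = 0.125).

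Per kilobase of annotated exons, the clamp genes were the highest and CDC6 the lowest. In YFP-POS the mean levels were 101 CPM per kb for PCNA2 and 98.2 CPM per kb for PCNA1, 53.1 for MCM7, 49.7 for MCM5, 47.7 for MCM4, 40.9 for MCM3, 36.3 for CDT1A, 30.2 for MCM6, 28.9 for MCM2 and 6.53 CPM per kb for CDC6. In YFP-NEG the order among the MCM genes was another: MCM3 had 31.4 CPM per kb, MCM6 25.4, MCM7 24.4, MCM5 22.6, MCM2 22.5 and MCM4 16.5 CPM per kb. MCM4 was thus the lowest MCM transcript in YFP-NEG and among the highest in YFP-POS, where MCM5, MCM7 and MCM4 did not differ beyond their SD of 4.27 to 6.90 CPM per kb.

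The division of the ring into MCM4, MCM5 and MCM7 on one side and MCM2, MCM3 and MCM6 on the other was drawn after the values were seen, and it is given as a description with no test. The summed CPM of MCM4, MCM5 and MCM7 over that of MCM2, MCM3 and MCM6 was 1.39 ± 0.233 in YFP-POS (range 1.13 to 1.57), 0.724 ± 0.103 in YFP-NEG (0.635 to 0.872), 1.24 ± 0.202 in ALL-SORT (0.995 to 1.49) and 1.24 ± 0.0683 in NO-SORT (1.17 to 1.31). The YFP-NEG libraries were the ones in which the first sum was smaller, apart from 1 ALL-SORT library at 0.995. A ratio within a library does not depend on how libraries are scaled. MCM4 over MCM6 was 1.63 ± 0.390 in YFP-POS and 0.654 ± 0.160 in YFP-NEG, against 1.46 ± 0.356 in ALL-SORT and 1.32 ± 0.185 in NO-SORT.

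**Figure D4:**
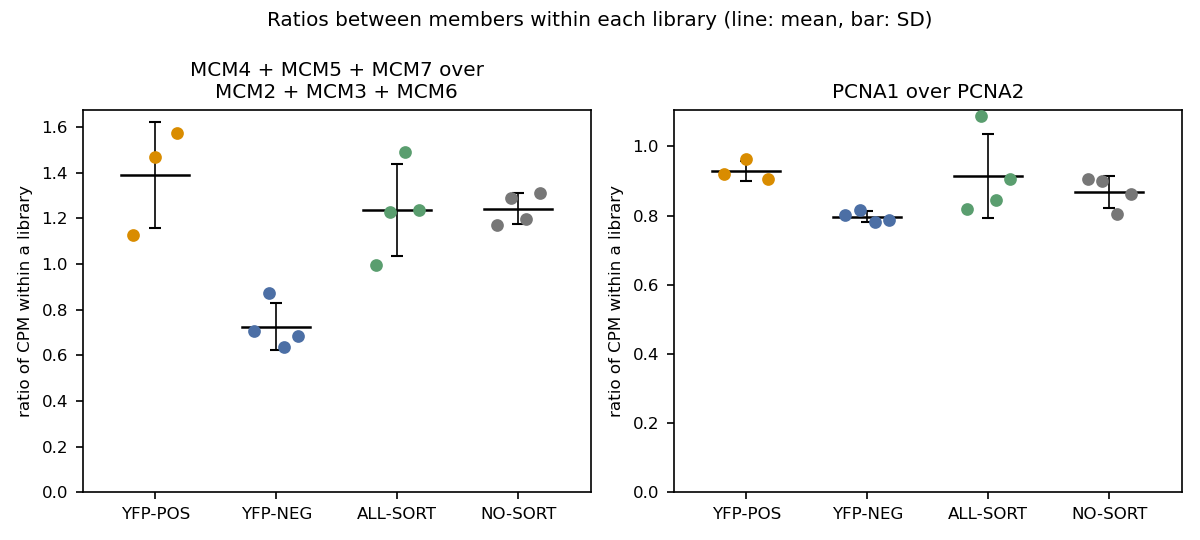
Ratios within each library of the summed CPM of MCM4, MCM5 and MCM7 over that of MCM2, MCM3 and MCM6 (left) and of PCNA1 over PCNA2 (right), by group; lines are means and bars are SD. The 4 YFP-NEG libraries lie between 0.635 and 0.872 on the left, below the 3 YFP-POS libraries at 1.13 to 1.57.

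Across the 15 libraries, log2 CPM of MCM4 and MCM5 correlated at Pearson's r = 0.977, MCM5 and MCM7 at 0.967, and MCM4 and MCM7 at 0.950. MCM2 and MCM6 correlated at 0.910 and PCNA1 and PCNA2 at 0.887, while MCM4 and MCM6 stood at 0.289 and MCM4 and CDC6 at 0.123. These are descriptions over libraries that share groups and scaling factors. MCM2 and MCM6 also shared their spread within groups, being high in YFP-POS replicate 1 and in ALL-SORT replicates 1 and 4.

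Of 15533 loci with a mean of at least 5 CPM, those whose pattern over the 15 libraries was most like the mean of the 6 MCM genes had r of 0.963 to 0.973. Those named here are AT4G14310, AT5G18700, CENP-C (a centromere protein), EMB2795, FU, AT1G50920 and EMB3012. Each had its highest mean in YFP-POS and its lowest in YFP-NEG. CENP-C, for example, had 81.9 CPM in YFP-POS and 50.5 CPM in YFP-NEG, and FU had 96.9 CPM in YFP-POS and 47.4 CPM in YFP-NEG. These loci were picked for likeness to the MCM mean over the same libraries, so this order of groups largely follows from the choice. Of the 10 genes themselves, MCM7 lay closest to that mean pattern (r = 0.952, which includes MCM7 itself) and CDC6 farthest (0.482).

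Other genes of replication and the cell cycle were taken from lists written from general knowledge. Of 19 licensing partners, 7 were called higher in YFP-POS than in YFP-NEG and none lower, where 24.4% of all loci were called higher and as many lower. The median log2 fold change was 0.47, against -0.015 over all loci and 0.46 over the 10 genes. CDC45, which joins the MCM ring in the active helicase, averaged 25.0 CPM in YFP-POS and 10.7 CPM in YFP-NEG (log2 fold change 1.26, SE 0.17, adjusted p = 0.000117). ETG1, the MCM-binding protein, averaged 73.9 CPM in YFP-POS and 34.1 CPM in YFP-NEG (1.16, SE 0.13, adjusted p = 2.74e-05). ORC3, of the origin recognition complex, stood at 0.68 (adjusted p = 0.00323). CDC45 and ETG1 thus differed by about as much as MCM5 and MCM7.

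Of 21 genes of the fork and of nucleotide supply, 12 were called higher and none lower (median 0.48), again beside 24.4% of all loci in each direction. POLA2, a subunit of polymerase alpha, stood at 0.89 (adjusted p = 0.000119), TSO2, a small subunit of ribonucleotide reductase, 0.86 (adjusted p = 0.000927) and RFC2, of the clamp loader, 0.83 (adjusted p = 0.000640). Among 9 E2F, DP and RBR regulators 6 were called higher and none lower (median 0.57), led by the activator E2FA at 0.93 (adjusted p = 0.000272), RBR1 at 0.74 (adjusted p = 0.00149) and DEL1, an atypical E2F, at 0.68 (adjusted p = 0.00415). Of 10 mitotic cyclins and kinases 7 were called higher and none lower (median 0.50), with the mitotic kinase CDKB2;1 at 1.29 (adjusted p = 1.26e-05), CYCB1;4 at 0.76 (adjusted p = 0.000635) and CYCB1;2 at 0.54 (adjusted p = 0.00500).

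In YFP-NEG against NO-SORT, 25.9% of all loci were called lower and 25.7% higher. Of the licensing partners 9 were called lower and 2 higher (median -0.10), of the fork genes 5 lower and 3 higher (median -0.08), and of the E2F, DP and RBR regulators 3 lower and 1 higher (median -0.24). Of the mitotic genes 6 were called higher and none lower (median 0.34). The median over all loci was -0.0038 and that over the 10 genes 0.0091. E2F-type letters stood in the windows of 7 of 19 licensing partners, 6 of 21 fork genes, 1 of 9 regulators and none of the 10 mitotic genes.

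**Figure D5:**
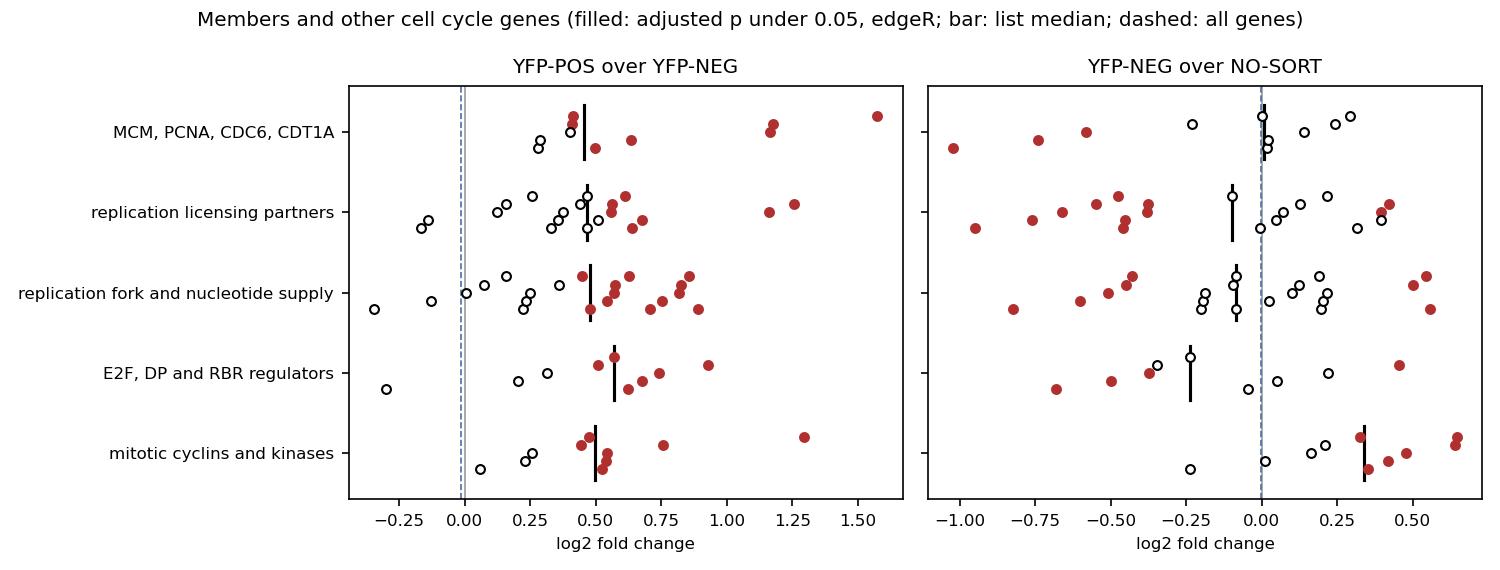
Log2 fold change of every tested gene of the 10 and of 4 other cell cycle lists in YFP-POS over YFP-NEG (left) and YFP-NEG over NO-SORT (right); filled points had an adjusted p under 0.05 in edgeR, black bars are list medians and the dashed line is the median of all loci. On the left no filled point lies below 0, and on the right the mitotic genes have filled points above 0 alone.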

How the data were processed

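The authors deposited raw counts per locus in tables of 33602 loci, with whole numbers and no normalization, per the file headers and values. Per the submitters' processing notes, FastQC, TopHat2 2.0.10, HTSeq, edgeR, DESeq2, Cufflinks 2.2.1 and the build TAIR10 were used. Their options, and whether counting used the strand, are not given in the sources used here. Per the labels, the libraries were strand-specific and read single-end for 125 cycles. The columns hold 1 value per library, so the 2 lanes were already combined, and the labels number the replicates as biological.

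Each comparison fitted only the libraries of its groups in edgeR 4.0.16 (R 4.3.3; quasi-likelihood F test), with filterByExpr defaults, TMM scaling and Benjamini-Hochberg adjustment over all loci tested. A call is an adjusted p under 0.05, and an adjusted p with no tool beside it is from edgeR. SE is the log2 fold change over the square root of F. Levels are CPM with TMM over all 15 libraries, and levels per kb divide by RefSeq exon length. The procedure was checked on simulated counts in which few loci changed, equally in both directions, with the same spread for all loci. The simulation held no replicate pairs and no library that stood apart. It therefore does not cover comparisons in which many loci differed, the pairing or ALL-SORT replicate 4. The members, lists and motifs were chosen with earlier results of these data known. Named genes outside the 10 are the 3 with the largest change among those called in YFP-POS against YFP-NEG per list, and the 8 most like the MCM pattern by Pearson's r (log2 CPM, prior count 1), of which 1 is not reported here.

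Also run were other scalings (RLE, upper-quartile, library totals), other filters, DESeq2 1.42.0, limma-voom (limma 3.58.1), an adjusted p under 0.01, a replicate block, all 15 libraries in the fit, and each library left out. Deviations from group means of same-numbered libraries correlated at 0.162 to 0.287 for YFP-POS with YFP-NEG, 0.337 to 0.394 for YFP-POS with ALL-SORT and 0.118 to 0.333 for YFP-NEG with ALL-SORT, all above the limit of 0.1, so the numbers were taken to pair the sorted libraries. RefSeq TAIR10.1 gave the annotation (32835 loci matched by locus tag) and the 250-base windows.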

Additional observations from a re-analysis of the deposited data

Results flagged for a closer look

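MCM2 in NO-SORT replicate 1 had 101 CPM, against 81.9 to 83.2 CPM in the other NO-SORT libraries. Its gap to the nearest library was 0.936 of the range of the group, above the limit of Dixon's test for 4 libraries. It was the 1 such value among 30 groups of 4 libraries examined, where chance gives about 1 in 20. The same library was the highest of NO-SORT for MCM3, MCM4, MCM5, MCM6, MCM7, PCNA1 and CDT1A.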

How the results depend on the processing

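In YFP-POS against YFP-NEG between 5 and 8 of the 10 genes were called under the alternatives, and MCM3 and PCNA2 lost their calls under upper-quartile scaling (0.32 for both) and under library totals (0.34 and 0.33), at an adjusted p under 0.01 and, for MCM3, with all 15 libraries in the fit (adjusted p = 0.122). Upper-quartile scaling moved the median of all loci to -0.107 there. At an adjusted p under 0.05, the share of all loci called higher there lay between 19.3% and 24.8% under the alternatives. No share of all loci was taken at an adjusted p under 0.01, so the counts at that threshold have no background beside them. Library totals moved the median of all loci to -0.158 in ALL-SORT against NO-SORT and to -0.137 in YFP-POS against NO-SORT. In YFP-POS against ALL-SORT the main count of 2 became 0 at an adjusted p under 0.01, 1 with library totals, 7 with DESeq2, 10 with the replicate block and 7 with all 15 libraries in the fit, and lay between 0 and 4 with 1 library left out. The share of all loci called higher was 3.36% in the main fit and with library totals, and 6.5% with DESeq2. It was 18.5% with the replicate block, 7.43% with all 15 libraries and 1.19% to 4.56% with 1 library left out. The cause of the change in the count was not tested. In YFP-NEG against ALL-SORT the count of 3 became 1 at an adjusted p under 0.01 and 1 with library totals. It lay between 1 and 3 with 1 library left out. The share of all loci called lower was 10.9% in the main fit, 8.53% with library totals and 4.16% to 11.4% with 1 library left out. In YFP-POS against NO-SORT the count of 8 became 3 at an adjusted p under 0.01, 3 with library totals and 4 with the replicate block, whose numbers did not pair these libraries (correlations of -0.019 to 0.049), and lay between 2 and 8 with 1 library left out. The share of all loci called higher there was 22.2% in the main fit, 15.4% with library totals and 14.8% with the replicate block. With 1 library left out it was 15.2% to 20.6%. In YFP-NEG against NO-SORT the count lay between 3 and 4, beside 40% to 52.7% of all loci called in either direction at an adjusted p under 0.05. With the block, the genes that lost their calls in YFP-POS against NO-SORT were MCM5, PCNA2, CDC6 and CDT1A (edgeR adjusted p = 0.123, 0.0514, 0.0847 and 0.0587). In each comparison with YFP-POS, replicate 4 of the other group was alone in its block. The block changed no call other than those given.

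All 33 changes of sign were of values that were not called. With 1 library left out, MCM6 in YFP-POS against YFP-NEG ranged from -0.0097 to 0.40. In ALL-SORT against NO-SORT, MCM4 ranged from -0.27 to 0.00029, PCNA1 from -0.0079 to 0.11 and PCNA2 from -0.073 to 0.017. PCNA1 there stood at -0.0098 under upper-quartile scaling and -0.080 when scaled by library totals, and CDT1A at -0.062 with library totals. In YFP-NEG against ALL-SORT, MCM2 ranged from -0.089 to 0.18, MCM3 from -0.013 to 0.20 and PCNA1 from -0.13 to 0.0091. In YFP-POS against NO-SORT, MCM2 ranged from -0.040 to 0.26 and MCM6 from -0.041 to 0.40, and MCM2 stood at -0.018 with library totals. In YFP-NEG against NO-SORT, MCM6 ranged from -0.048 to 0.15 and stood at -0.015 with upper-quartile scaling, -0.088 with library totals and -0.031 with all 15 libraries in the fit. PCNA1 there ranged from -0.021 to 0.068 and stood at -0.021, -0.096 and -0.034 under the same settings in that order. CDT1A there ranged from -0.056 to 0.068 and stood at 0.0050 with RLE scaling and 0.0051 with DESeq2.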

Other observations

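Some paralogs and relatives of the 10 genes that no rule singled out were looked at after their values were seen. CDC6B averaged 7.45 ± 1.19 CPM in YFP-POS and 5.36 ± 1.04 CPM in YFP-NEG (SD, n = 3 and 4), or 0.51 on the log2 scale (SE 0.24, edgeR adjusted p = 0.101). CDT1B averaged 32.3 ± 5.69 CPM in YFP-POS and 29.7 ± 1.70 CPM in YFP-NEG (0.16, SE 0.14, adjusted p = 0.356). MCM8, which in animals acts in recombination with MCM9, was called higher in YFP-POS at 12.2 CPM against 8.51 CPM in YFP-NEG (0.56, SE 0.20, adjusted p = 0.0316). MCM9 was not called, at 11.5 CPM in YFP-POS and 13.3 CPM in YFP-NEG (-0.17, SE 0.18, adjusted p = 0.476). ORC1A and ORC1B, the large subunits of the origin recognition complex, were both called lower in YFP-NEG than in NO-SORT, at -0.76 (adjusted p = 0.00736) and -0.55 (adjusted p = 0.0178). Whether these calls hold without NO-SORT replicate 1 was not tested.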
